A study of Mus musculus with 16 samples.

Results

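The 10 genes described here carry arginine into cells and lead it to nitric oxide or to polyamines. They were Slc7a1 and Slc7a2 (import), Nos2, Nos3 and Ddah1 (nitric oxide and its control), Ass1 and Asl (arginine resynthesis), Arg1 and Arg2 (arginases) and Odc1 (polyamine entry). They were taken as a named list, chosen by the measured difference of Slc7a2 between LPS and air pools, which stood among the clearest rises in these same lungs. All 10 of the 10 were measured, among 20629 features tested, of which 16481 had a gene symbol.

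Arginine is the shared substrate of the nitric oxide synthases and the arginases, so the route it takes is set by uptake from outside the cell, by the enzymes that compete for it and by its rebuilding from citrulline. Nitric oxide synthases turn it into nitric oxide and citrulline, while arginases turn it into urea and ornithine, from which ornithine decarboxylase makes putrescine, the first polyamine. In the mouse lung, endothelial nitric oxide bears on vascular tone, and the inducible synthase is a classical product of activated macrophages.

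The study compared lungs of male C57/BL6 mice aged 8 weeks that had inhaled aerosolized lipopolysaccharide (LPS, a cell-wall component of Gram-negative bacteria) over 5 days with lungs of mice of the same strain, sex and age that breathed air. Tissue was taken when the final inhalation ended, on day 5. Total RNA of 3 animals was pooled, with 4 pools in each group, and no genetic change is named in either group. Every pool was hybridised on a pair of 2-colour arrays against 1 commercial mouse reference RNA, with the dyes exchanged between the arrays. Each level below is therefore log2(lung/reference) of a pool, and a difference is the mean of the LPS pools minus the mean of the air pools, with its standard error (SE). Levels of different genes cannot be set against each other on this scale, because each gene has its own level in the reference. In pooled whole lung, more cells of a kind and more RNA per cell cannot be told apart.

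The data were 15 arrays of 22575 spots each. One further array, of air pool 4 with lung in Cy3, was left out because its deposited table joined images of different arrays, so that air pool 4 rests on a single array. The share of spots with signal in both channels was 97.2 to 99.5% on these arrays, and the median lung signal was 4.28 to 28.2 times the local background. Both arrays of a pool correlated at r = 0.820 to 0.899 where version 2.2.3 of the image program was used, and at 0.418 to 0.795 under version 2.2.4. Version 2.2.3 was used for LPS pools 1 and 2 and air pools 3 and 4, of which air pool 4 has no such correlation. Version 2.2.4 was used for LPS pools 3 and 4 and air pools 1 and 2. A week number in the image names was 1 for every LPS pool and 4 or 8 for the air pools, so what it stands for and the exposure cannot be told apart. The lung markers Sftpc, Sftpb, Scgb1a1, Cdh5 and Ager lay at percentiles 97.7 to 99.96 of the air levels. Precision is limited by how few arrays there are. The labels name separate pools of animals, so the tests measure the spread between pools, not between single mice.

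For 4 of the 10 genes a promoter window was found in the RefSeq set of build GRCm38.p6. It covers 250 bases before to 50 bases after the annotated start, and the 4 genes have 5 windows because Slc7a1 has 2. The 250 bases before the start of Ass1, Odc1 and Ddah1 are shown, since these are, of the genes with a window, 1 that passed the test between LPS and air, 1 that did not pass with a positive difference and 1 with a difference close to 0. They lie at chr2:31470020-31470269 (plus strand, Ass1), chr12:17544623-17544872 (plus strand, Odc1) and chr3:145758442-145758691 (plus strand, Ddah1), and capitals mark matches to the motifs named after them.
Ass1: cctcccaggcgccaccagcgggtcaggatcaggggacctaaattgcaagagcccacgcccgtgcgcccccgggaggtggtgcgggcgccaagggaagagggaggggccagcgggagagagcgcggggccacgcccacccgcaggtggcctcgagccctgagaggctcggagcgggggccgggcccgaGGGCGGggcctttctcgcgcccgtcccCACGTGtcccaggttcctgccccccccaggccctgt
Odc1: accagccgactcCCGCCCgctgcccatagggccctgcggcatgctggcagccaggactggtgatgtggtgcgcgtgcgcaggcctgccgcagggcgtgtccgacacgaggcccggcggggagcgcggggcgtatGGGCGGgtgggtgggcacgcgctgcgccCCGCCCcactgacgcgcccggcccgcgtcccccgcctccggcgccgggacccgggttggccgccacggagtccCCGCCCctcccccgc
Ddah1: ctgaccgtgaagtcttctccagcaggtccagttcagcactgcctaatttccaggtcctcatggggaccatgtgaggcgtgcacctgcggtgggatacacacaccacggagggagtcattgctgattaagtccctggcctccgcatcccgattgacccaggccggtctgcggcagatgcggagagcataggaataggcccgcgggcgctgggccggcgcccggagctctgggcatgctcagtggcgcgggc
The motifs searched on both strands of the whole windows were the TATA box (TATAAA), the E-box (CACGTG), the GC box (GGGCGG), the AP-1 element (TGANTCA) and the GAS element (TTCNNNGAA). Ass1 held 1 E-box, 36 bases before the start, and 1 GC box, 63 bases before it. Odc1 held 4 GC boxes, and the Ddah1 window held none of the 5 motifs. Of the Slc7a1 windows, the one at chr5:148399855-148400154 (minus strand) held 1 GC box and 1 AP-1 element, and the one at chr5:148392766-148393065 (minus strand) held 1 TATA box and 1 GAS element. Among all 32851 RefSeq windows of this length, 35.7% held a GC box, 13.6% a TATA box, 8.30% a GAS element, 7.81% an AP-1 element and 7.15% an E-box. No matches overlapped. A match describes the letters only.

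Slc7a2, on chromosome 8, encodes a cationic amino acid transporter of the plasma membrane that imports arginine, lysine and ornithine and is known in mouse macrophages as an inducible uptake route. Its level in air pools 1 to 4 was 0.07, 0.03, -0.26 and 0.08, and in LPS pools 1 to 4 it was 2.62, 2.80, 2.57 and 2.49. All 4 LPS pools lay far above all 4 air pools, and the spread within a group was small, with an SD of 0.163 in air and 0.130 in LPS. The difference was 2.64 ± 0.13 (SE, 4 pools per group), or 6.24-fold. As this rise is what put the list together, it is given as a description without a test. It was 2.80 among the pools of program version 2.2.3 and 2.48 among those of version 2.2.4, and 2.88 from arrays with lung in Cy3 alone and 2.43 from arrays with lung in Cy5 alone. The lung signal of the Slc7a2 spot had a median of 5.48 times the local background over the 7 air arrays (1.97 to 9.19) and of 34.1 times over the 8 LPS arrays (16.6 to 65.1). With each pool left out in turn the difference stayed between 2.56 and 2.69.

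**Figure D1:**
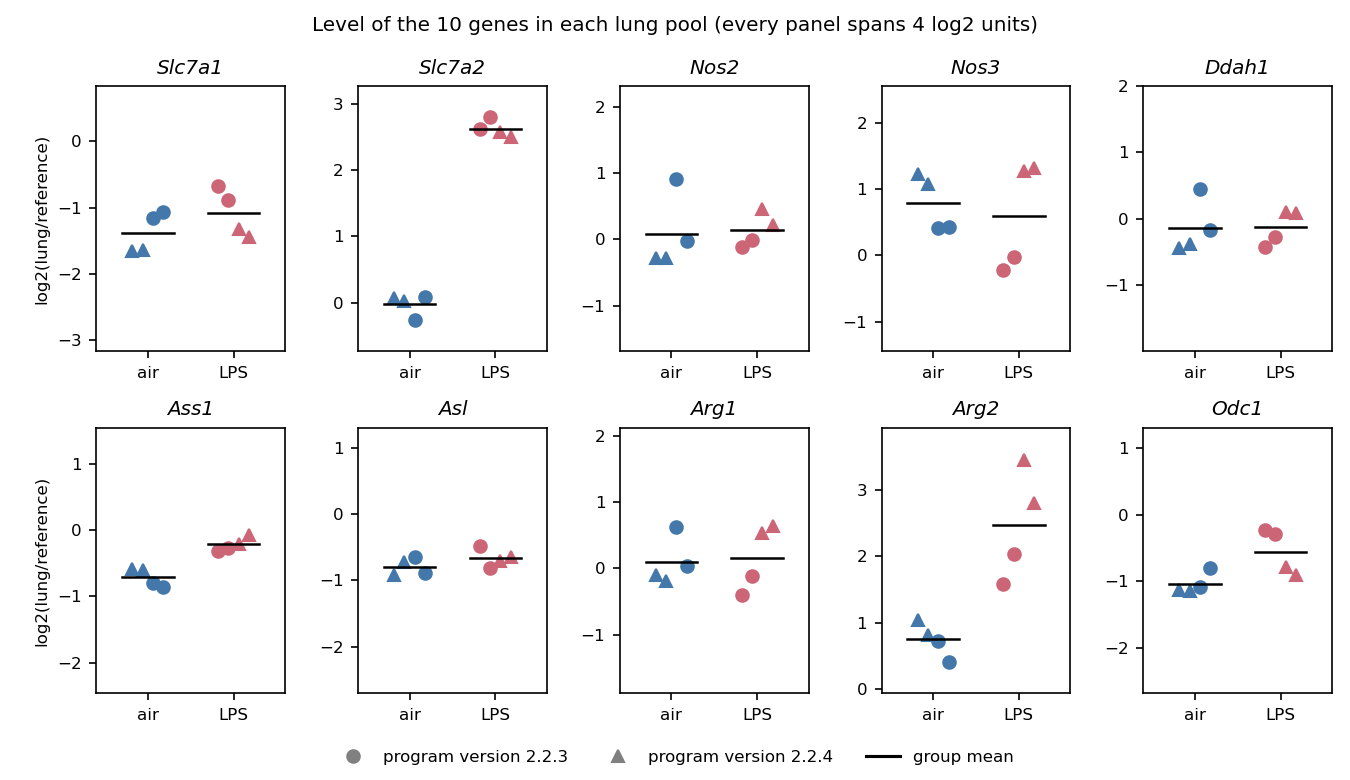
Level of each of the 10 genes, as log2(lung/reference), in the 4 air pools (blue) and the 4 LPS pools (red), with circles for pools read with program version 2.2.3, triangles for version 2.2.4 and black lines for group means. Each panel spans the same number of log2 units. Slc7a2 moves from -0.02 to 2.62 on average with no overlap, Arg2 and Ass1 also show no overlap, and in the other 7 panels the groups overlap. Of the features measured in all 8 pools, 16.7% had no overlap.

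Of the 9 other genes, 2 passed limma's test (Benjamini-Hochberg adjusted over all features, threshold 0.05), both higher in LPS, and 7 did not pass. None was lower, at the adjusted threshold or at an unadjusted p under 0.05 (0 of 9 each), while 3 of the 9 were higher at an unadjusted p under 0.05. Over all 20629 features 6.67% passed, 5.95% higher and 0.713% lower. The genes were listed with these results known, and nothing is read from the count. The median difference of the 9 genes was 0.13, beside 0.00922 over all features.

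Slc7a1, on chromosome 5, encodes the cationic amino acid transporter found in most cell types, and it was measured by 2 probes. The brighter probe stood at -1.65, -1.64, -1.16 and -1.06 in air pools 1 to 4 and at -0.68, -0.89, -1.31 and -1.45 in LPS pools 1 to 4. The groups overlapped on this probe, because LPS pools 3 and 4 lay among the air pools. Its difference of 0.29 ± 0.21 did not pass (adjusted p = 0.436, limma), with a 95% interval of -0.17 to 0.76. Within program versions the difference was 0.33 for 2.2.3 and 0.26 for 2.2.4.

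The dimmer Slc7a1 probe stood at -2.42, -2.20, -1.61 and -2.03 in air and at -0.90, -0.96, -1.40 and -1.66 in LPS. Only LPS pool 4 fell inside the range of the air pools, just below air pool 3. Tested with every probe as a feature of its own, the difference on this probe was 0.84 ± 0.22, or 1.78-fold, and passed (adjusted p = 0.0470, limma over 22337 probes, of which 1528 or 6.84% passed). The probes of Slc7a1 thus disagreed on the call while both differences were positive, and where on the transcript each of them lies is not given here.

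**Figure D2:**
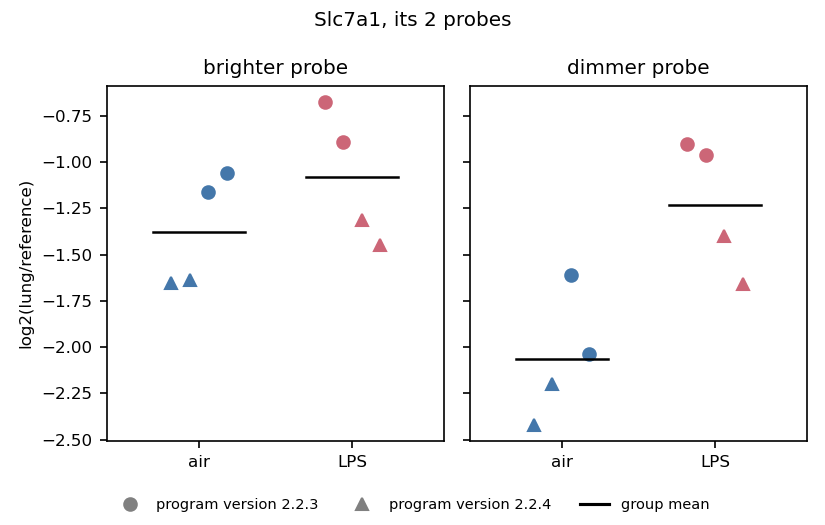
Levels of the 2 Slc7a1 probes, as log2(lung/reference), in the 4 air (blue) and 4 LPS (red) pools, with circles for program version 2.2.3, triangles for version 2.2.4 and black lines for group means. The difference is 0.29 on the brighter probe and 0.84 on the dimmer one, and on both the LPS pools of version 2.2.3 lie highest.

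Neither of the nitric oxide synthases measured here passed. Nos2, on chromosome 11, encodes the inducible synthase. It stood at -0.29, -0.28, 0.91 and -0.03 in air pools 1 to 4 and at -0.11, -0.01, 0.46 and 0.22 in LPS pools 1 to 4. The highest of the 8 levels belonged to air pool 3, and 3 of the 4 LPS pools lay above the other 3 air pools, with LPS pool 1 among them. The difference was 0.06 ± 0.26 (adjusted p = 0.913, limma), with a 95% interval of -0.51 to 0.64. Within version 2.2.3 it was -0.50 and within version 2.2.4 it was 0.62, a disagreement in sign that did not pass a test of its own (adjusted p = 0.0884, limma interaction). The Nos2 spot read a median of 4.10 times the local background over the air arrays and 9.47 times over the LPS arrays, so it was not below background in either group.

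Nos3, on chromosome 5, encodes the endothelial synthase. Its levels in air pools 1 to 4 were 1.22, 1.08, 0.42 and 0.42, and in LPS pools 1 to 4 they were -0.22, -0.03, 1.27 and 1.32. The levels divided by program version rather than by exposure, since in both groups the pools of version 2.2.4 were the high ones. The difference was -0.20 ± 0.37 (adjusted p = 0.791, limma), with a 95% interval of -1.02 to 0.62, and was -0.54 within version 2.2.3 and 0.15 within version 2.2.4 (interaction adjusted p = 0.0574). Of the 12 endothelial markers 1 was higher and 0 were lower (1 of each at an unadjusted p under 0.05), with a median difference of -0.10. Over all features 5.95% were higher and 0.713% lower, with a median difference of 0.00922.

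Ddah1, on chromosome 3, encodes an enzyme that breaks down asymmetric dimethylarginine, an inhibitor of nitric oxide synthases. Air pools 1 to 4 stood at -0.45, -0.37, 0.45 and -0.17, and LPS pools 1 to 4 at -0.43, -0.27, 0.10 and 0.08. Air pool 3 was again the highest of the 8, and the groups overlapped over most of their range. The difference was 0.01 ± 0.21 (adjusted p = 0.991, limma), with a 95% interval of -0.47 to 0.48, made up of -0.49 within version 2.2.3 and 0.50 within version 2.2.4 (interaction adjusted p = 0.0598).

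Ass1, on chromosome 2, encodes argininosuccinate synthase, which joins citrulline to aspartate in the first and limiting step of arginine resynthesis. Its levels were -0.59, -0.60, -0.80 and -0.86 in air pools 1 to 4 and -0.32, -0.27, -0.21 and -0.07 in LPS pools 1 to 4. The lowest LPS pool lay above the highest air pool, so the groups did not overlap, as was so for 16.7% of the 20356 features measured in all 8 pools. The rise was 0.49 ± 0.13, or 1.41-fold, and passed narrowly (adjusted p = 0.0430, limma). It was of like size within both versions, 0.53 and 0.46, but not with both dyes. With lung in Cy3 alone it was 0.28 (adjusted p = 0.378, limma), and with lung in Cy5 alone it was 0.62. Air pool 4, the lowest air pool, rests on its array with lung in Cy5. The call did not hold in any of the 8 fits that each left out 1 pool, where the difference was 0.45 to 0.53 and the adjusted p 0.0607 to 0.109. It held with the program version as a block (adjusted p = 0.0173, a fit in which 11.0% of all features passed).

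Asl, on chromosome 5, encodes argininosuccinate lyase, which completes the resynthesis of arginine. It stood at -0.92, -0.73, -0.64 and -0.90 in air and at -0.49, -0.81, -0.71 and -0.65 in LPS. LPS pool 1 was the highest of all and the other 3 LPS pools lay inside the air range. The difference of 0.13 ± 0.13 did not pass (adjusted p = 0.579, limma; 95% interval -0.15 to 0.42). The Asl spot read a median lung signal of 4.11 times the local background in air and 4.25 times in LPS.

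The 2 arginases differed in their values. Arg2, on chromosome 12, encodes the mitochondrial form. Its levels were 1.04, 0.82, 0.73 and 0.41 in air pools 1 to 4 and 1.59, 2.03, 3.46 and 2.81 in LPS pools 1 to 4. Every LPS pool lay above every air pool, but the LPS pools were spread widely, with an SD of 0.830 against 0.260 in air. The rise was 1.72 ± 0.35, or 3.30-fold, and passed (adjusted p = 0.0168, limma). It was 1.24 within version 2.2.3 and 2.21 within version 2.2.4, a gap of 0.97 that did not pass a test of its own (interaction adjusted p = 0.105). Without air pool 4 the difference was 1.61 and the call was lost (adjusted p = 0.0608), whereas it held without each of the other 7 pools. In air the Arg2 spot was dim, with a median lung signal of 2.91 times the local background (1.67 to 8.17), against 16.1 times in LPS. Its reference signal was dim on the arrays of version 2.2.4, at 1.07 to 2.06 times the local background. On the arrays used of version 2.2.3 it was 3.71 to 7.65 times. The higher Arg2 levels of LPS pools 3 and 4 thus rest on a weak reference signal, and so do the levels of air pools 1 and 2.

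Arg1, on chromosome 10, encodes the cytosolic arginase, known from the liver urea cycle and from alternatively activated macrophages. It stood at -0.10, -0.19, 0.61 and 0.03 in air pools 1 to 4 and at -0.41, -0.12, 0.54 and 0.63 in LPS pools 1 to 4. The LPS group held both the lowest and the highest level. The difference was 0.07 ± 0.26 (adjusted p = 0.897, limma), with a 95% interval of -0.51 to 0.65. Within version 2.2.3 it was -0.59 and within version 2.2.4 it was 0.73. This gap of 1.32 ± 0.28 passed the interaction test (adjusted p = 0.0333), as did 8.69% of all features, and Arg1 was the only one of the 10 genes to pass it. With all 16 arrays the gap was 1.35 and the call was lost (adjusted p = 0.213), and no feature then passed at all (0, with 2836 at an unadjusted p under 0.05). The array added in that setting gives lung over lung in place of lung over reference.

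**Figure D3:**
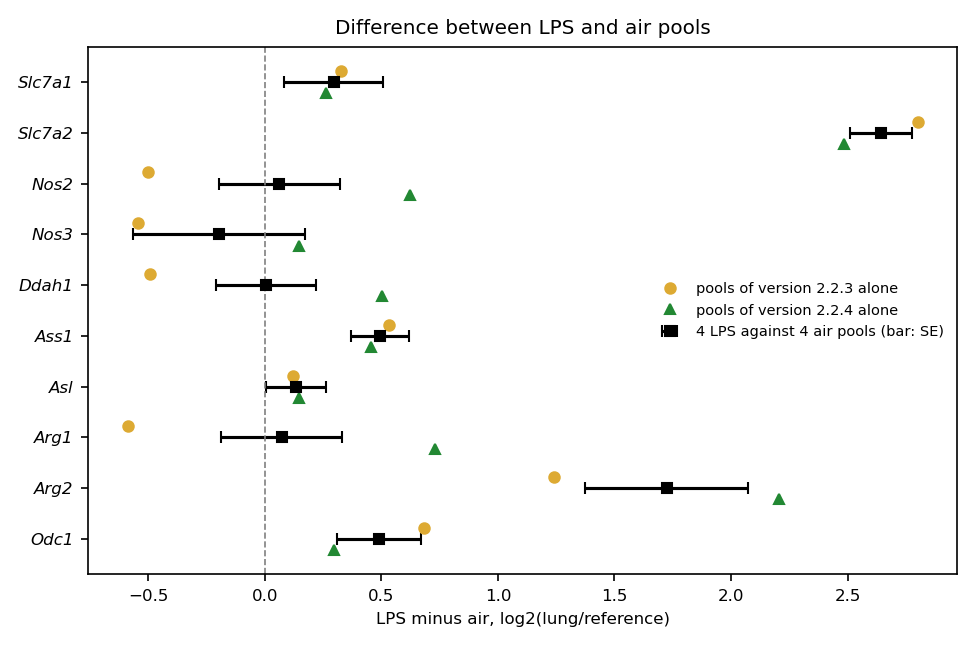
Difference between LPS and air on the log2(lung/reference) scale for each of the 10 genes, as a black square with its SE over 4 against 4 pools, with the difference among pools of program version 2.2.3 alone (circle) and of version 2.2.4 alone (triangle). Both versions give a positive difference for Slc7a1, Slc7a2, Ass1, Asl, Arg2 and Odc1, while the versions lie on opposite sides of 0 for Nos2, Nos3, Ddah1 and Arg1.

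Odc1, on chromosome 12, encodes ornithine decarboxylase, the regulated entry step of polyamine synthesis. It stood at -1.13, -1.15, -1.09 and -0.79 in air pools 1 to 4 and at -0.23, -0.29, -0.79 and -0.91 in LPS pools 1 to 4. LPS pools 1 and 2 lay well above every air pool, and LPS pool 3 (-0.786) lay just above the highest, air pool 4 (-0.795). LPS pool 4 lay inside the air range. The difference of 0.49 ± 0.18, or 1.40-fold, did not pass (adjusted p = 0.144, limma). Within versions it was 0.68 for 2.2.3 and 0.30 for 2.2.4. With the program version as a block it passed (adjusted p = 0.0410).

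A wider list of 109 genes around the same pathways, with the 10 genes left out, was described in the same fit. Of its 92 tested genes 17 rose, 0 fell and 75 did not pass (at an unadjusted p under 0.05, 27 were higher and 3 lower in limma). Over all 20629 features 5.95% rose and 0.713% fell, and 3044 were higher and 1592 lower at an unadjusted p under 0.05. Groups did not overlap for 16.7% of features measured in all 8 pools. The counts by role below are given beside these shares. The list was drawn up with earlier results of these data known, and nothing is read from its counts. With the program version as a block, where 11.0% of all features passed, 23 genes of the list passed, made up of the same 17 and 6 more. The median difference was 0.0855, beside 0.0192 over all features with a symbol. The genes that passed were spread over 9 of the 12 roles, as the plot by role shows.

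Among the other 10 tested transporters of cationic amino acids and their partners, 1 rose. It was Slc3a2, the heavy chain that carries several amino acid exchangers to the cell surface. Its levels were -0.32, -0.41, -1.14 and -0.74 in air and 0.46, 0.26, 0.02 and 0.09 in LPS, with no overlap. The difference was 0.86 ± 0.19 (adjusted p = 0.0265, limma), 1.30 within version 2.2.3 and 0.42 within version 2.2.4. The call was lost without air pool 4 (adjusted p = 0.0773), LPS pool 1 (0.0865) or LPS pool 2 (0.0739). Slc6a14, a transporter of neutral and cationic amino acids, was at 0.69 ± 0.25 and did not pass (adjusted p = 0.131), but passed with the version as a block (0.00864), with 0.78 and 0.61 within the versions.

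Of the 7 genes tested of the urea cycle and of mitochondrial ornithine transport, none passed (0 of 7, with 1 lower and 0 higher at an unadjusted p under 0.05). The lowest p belonged to Slc25a29, a mitochondrial carrier of basic amino acids, at -0.40 ± 0.15 (adjusted p = 0.153). Of the 7 genes of the ornithine, proline and creatine branches, 1 rose. Gatm, which takes the amidino group of arginine for creatine synthesis, stood at -3.00, -2.78, -2.60 and -2.84 in air and at -0.76, -0.86, -1.06 and -1.33 in LPS. The groups lay far apart, by 1.80 ± 0.16 or 3.48-fold (adjusted p = 0.000141, limma), and on 1 of the 7 air arrays the Gatm lung signal was below the local background.

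Around the nitric oxide synthases, 2 of 10 partners rose, beside 5.95% of all features. Hsp90aa1, a chaperone that binds the endothelial synthase, differed by 1.18 ± 0.25 (adjusted p = 0.0208), with air pools at -1.03, -0.83, -1.65 and -1.83 and LPS pools at 0.20, 0.03, -0.29 and -0.58. Calm2, a calmodulin gene whose protein binds nitric oxide synthases, differed by 0.56 ± 0.12 (adjusted p = 0.0241). Neither gene's groups overlapped. Hsp90aa1 differed by 1.85 within version 2.2.3 and by 0.50 within version 2.2.4, a gap that passed the interaction test (adjusted p = 0.0236). Calm2 differed by 0.64 and 0.47 within the versions. Without 1 pool the Hsp90aa1 call was lost for air pools 3 and 4 and LPS pools 1 and 2 (adjusted p 0.0590, 0.0609, 0.0693 and 0.0634). The Calm2 call was lost for air pool 4 and LPS pools 1, 2 and 3 (0.0566, 0.0804, 0.0575 and 0.0681).

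Of the 6 genes of tetrahydrobiopterin, a cofactor of nitric oxide synthases, 1 rose. Gch1, the limiting enzyme of its synthesis, stood at -0.14, -0.01, -0.31 and 0.24 in air and at 1.08, 0.73, 0.57 and 0.53 in LPS. The groups did not overlap and differed by 0.78 ± 0.17, or 1.72-fold (adjusted p = 0.0220, limma). The call was lost without air pool 3 (0.0524), LPS pool 1 (0.0630) or LPS pool 2 (0.0618). None of the 7 methylarginine genes passed (0 of 7, with 1 higher at an unadjusted p under 0.05), and Prmt1, a main arginine methyltransferase, had the lowest p at 0.61 ± 0.19 (adjusted p = 0.0939). With the version as a block 1 of the 7 passed, Prmt7, another arginine methyltransferase, at 0.63 ± 0.31 without the block (adjusted p = 0.268) and an adjusted p of 0.00590 with it.

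Of the 12 genes of nitric oxide targets and signalling, 2 rose, and both belong to thiol reduction. Gsr, glutathione reductase, stood at -1.09, -0.96, -1.29 and -0.92 in air and at 0.50, 0.51, 0.50 and 0.32 in LPS. Its groups were tight and well apart, with a difference of 1.53 ± 0.13 or 2.88-fold (adjusted p = 0.000121, limma). Txn1, thioredoxin, differed by 1.10 ± 0.24 (adjusted p = 0.0229), 1.75 within version 2.2.3 and 0.45 within version 2.2.4, a gap that passed the interaction test (adjusted p = 0.0233). The Txn1 call was lost without air pool 3 or 4 or LPS pool 1 or 2 (adjusted p 0.0615, 0.0728, 0.0693 and 0.0698). Txnrd1, a thioredoxin reductase, was at 0.89 ± 0.24 (adjusted p = 0.0531) and passed with the version as a block (0.0383) and without LPS pool 4 (0.0180).

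**Figure D4:**
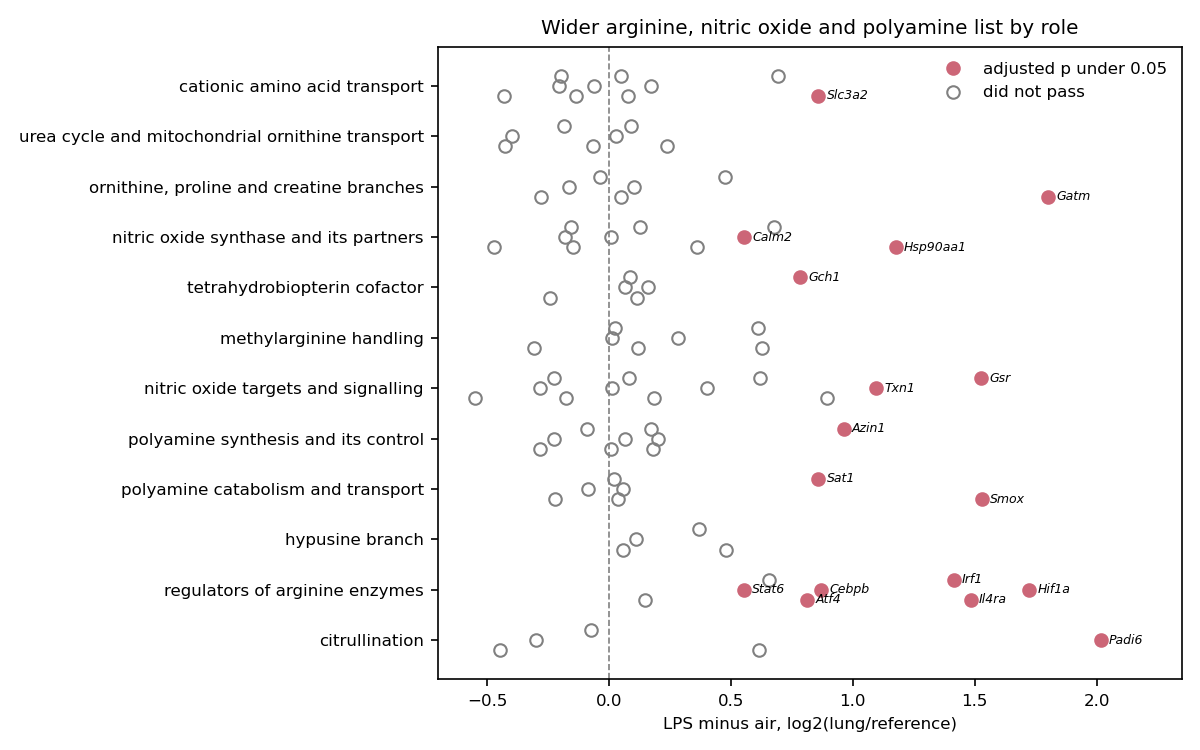
Difference between LPS and air on the log2(lung/reference) scale for the 92 tested genes of the wider list, by role, with filled points for genes at an adjusted p under 0.05 (named) and open points for the rest. The 17 filled points all lie right of 0, and the regulators hold 6 of them.

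On the polyamine side, Azin1 rose among 9 genes of synthesis and its control. Azin1 is the antizyme inhibitor, which keeps ornithine decarboxylase from being degraded. Its levels were -0.87, -0.68, -0.84 and -0.48 in air and 0.47, 0.50, -0.06 and 0.07 in LPS, with no overlap and a difference of 0.96 ± 0.17 (adjusted p = 0.00746, limma). Of 7 genes of polyamine breakdown and transport, 2 rose. Smox, spermine oxidase, stood at -0.66, -0.47, -0.36 and -0.29 in air and at 1.15, 1.07, 1.24 and 0.86 in LPS. The groups lay well apart, by 1.53 ± 0.14 or 2.88-fold (adjusted p = 0.000165), with 1.44 and 1.62 within the versions. Sat1, the acetyltransferase that marks spermidine and spermine for export or oxidation, differed by 0.86 ± 0.17 (adjusted p = 0.0168), and its call was lost without LPS pool 2 (0.0571) or LPS pool 3 (0.0535). None of the 4 genes of the hypusine branch passed (0 of 4, with 2 higher at an unadjusted p under 0.05). Eif5a, the translation factor that receives a part of spermidine as hypusine, was at 0.48 ± 0.15 (adjusted p = 0.0970), and passed with the version as a block (0.0236).

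Of the 8 tested regulators known to act on genes of arginine enzymes, 6 rose, beside 5.95% of all features. This role was listed with earlier results of these data known, and nothing is read from its count. Hif1a, the oxygen-regulated transcription factor, stood at -1.63, -1.55, -1.66 and -1.61 in air and at 0.47, 0.49, 0.11 and -0.62 in LPS, and differed by 1.72 ± 0.23 or 3.30-fold (adjusted p = 0.00156, limma). The air pools were nearly alike and LPS pool 4 was the lowest of its group. Irf1, an interferon-responsive transcription factor, differed by 1.41 ± 0.23 (adjusted p = 0.00520), and Cebpb, a transcription factor of inflammatory and arginase genes, by 0.87 ± 0.16 (adjusted p = 0.00913). The others, named after their values were seen, were Il4ra, the interleukin-4 receptor chain (1.48 ± 0.28, adjusted p = 0.0119), Atf4, the amino acid stress factor (0.81 ± 0.17, adjusted p = 0.0224), and Stat6, which signals from that receptor (0.55 ± 0.14, adjusted p = 0.0407). No groups overlapped among these 6 genes, beside 16.7% of features measured in all 8 pools. The 6 were picked by passing the test, so the lack of overlap is not separate support. Myc, a transcription factor of growth that was also named after its values were seen, was at 0.66 ± 0.31 (adjusted p = 0.246) and passed with the version as a block (0.00725). The Stat6 call was lost without any 1 of air pools 1, 3 and 4 and LPS pools 1 to 4 (adjusted p 0.0549 to 0.108). The Atf4 call was lost without air pool 3 or 4 or LPS pool 1, 2 or 3 (adjusted p 0.0541 to 0.0748).

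Of 5 peptidylarginine deiminases, which turn arginine within proteins into citrulline, 1 rose. Padi6, known from the oocyte, stood at -0.41, -0.18, 0.28 and 0.51 in air and at 1.37, 1.86, 2.71 and 2.33 in LPS. The groups did not overlap, with a difference of 2.02 ± 0.29 or 4.05-fold (adjusted p = 0.00298, limma). It was 1.22 within version 2.2.3 and 2.81 within version 2.2.4, and this gap passed the interaction test (adjusted p = 0.0255). Padi4, known from neutrophils, was at 0.62 ± 0.19 (adjusted p = 0.0827), and it passed with the version as a block (0.0186) and, barely, without LPS pool 3 (0.04996).

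The genes whose pool profile lay closest to that of Slc7a2 were found by the root mean square distance over the 8 pools, with each gene set relative to its own air mean, among 16329 named genes. They were Ifi205, an interferon-activated gene (distance 0.186 log2 units), Acod1, the enzyme that makes itaconate (0.222), Wfdc18 of the whey acidic protein family (0.237), Cd274, the ligand of the PD-1 receptor (0.247), and Marcksl1, a MARCKS-like protein of the actin cortex (0.267). Their differences were 2.52, 2.64, 2.44, 2.76 and 2.36, beside 2.64 for Slc7a2. Acod1 stood at 0.09, 0.16, -0.09 and -0.32 in air and at 2.58, 2.43, 2.77 and 2.61 in LPS. The likeness is a description of 8 pools that mostly share the step from air to LPS.

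**Figure D5:**
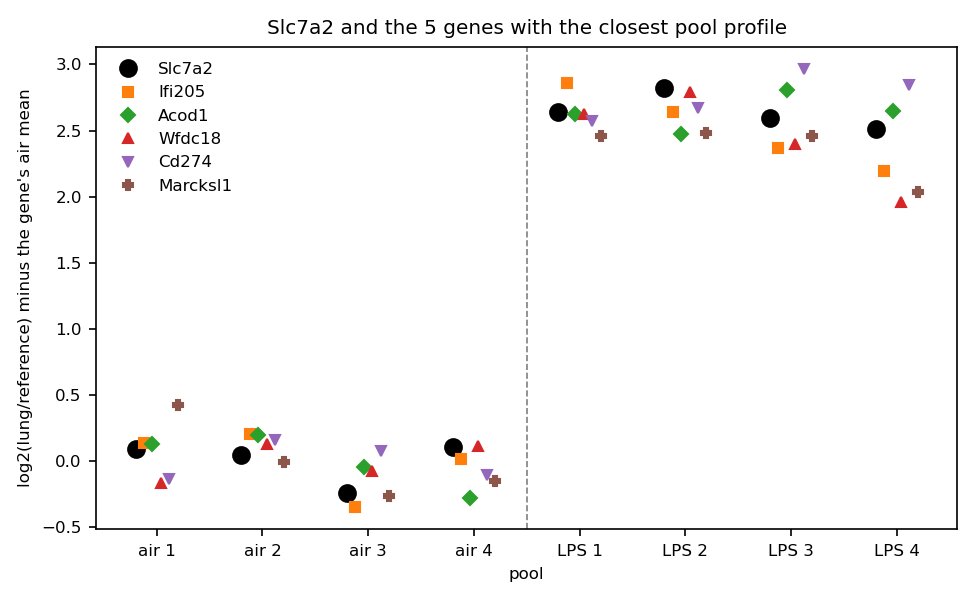
Level of Slc7a2 (large black circles) and of the 5 genes with the closest profile in each of the 8 pools, as log2(lung/reference) minus the gene's own air mean. Air pools are to the left of the dashed line and LPS pools to the right, and all 6 genes lie well apart between the groups, with LPS pool 4 low for Ifi205, Wfdc18 and Marcksl1 and not for Acod1 and Cd274.

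Among the marker lists of cell types, those of macrophages and monocytes and of neutrophils held the most markers that rose. Over all features 5.95% rose and the median difference was 0.00922. The marker lists were also chosen with earlier results of these data known, and nothing is read from their counts. Of 16 tested macrophage and monocyte markers 9 rose, with a median difference of 1.16, and the mean level of the list was 0.452 to 1.03 in the air pools and 1.90 to 2.40 in the LPS pools. Of 12 tested neutrophil markers 6 rose, with a median of 1.04, and the mean level of the list was 0.0209 to 0.653 in air and 1.26 to 2.24 in LPS. Fcer1g, a signalling chain of Fc receptors, differed by 3.03 ± 0.19 (adjusted p = 2.15e-05, limma), and Clec4d, a lectin of myeloid cells, by 3.28 ± 0.28 (adjusted p = 0.000115). The other 6 neutrophil markers did not pass: Cxcr2 (0.93), Camp (0.51), Elane (0.29), Mmp8 (0.27), Mpo (-0.10) and Ngp (-0.13). None of the macrophage or neutrophil markers fell (0 of 28 at the adjusted threshold or at an unadjusted p under 0.05). Of 9 type 2 epithelial markers none passed (0, with 1 higher at an unadjusted p under 0.05), with a median of 0.25. Of 7 fibroblast markers 2 rose, with a median of 0.61, among them Col3a1, a fibrillar collagen, at 1.90 ± 0.17 (adjusted p = 0.000141). The other 5 did not pass, and Pdgfrb (-0.13) and Dcn (-0.10) had negative differences. Of 6 type 1 epithelial and 5 smooth muscle markers 1 each rose, while the list medians were -0.13 and -0.21. Differences were positive for 2 of the 6 and 1 of the 5. Of 3 airway, 6 T and NK cell and 3 B cell markers none passed (0 each, with 1 higher and 1 lower, 1 higher, and 1 lower at an unadjusted p under 0.05). The part of these markers' changes in the differences of Slc7a2, Arg2, Ass1 and the wider list was not tested.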

How the data were processed

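Lung RNA was compared with a reference RNA on 2-colour arrays. Per the file headers, spot intensity values came from TIGR Spotfinder (2.2.3 on some arrays and 2.2.4 on others). The deposited intensity columns were net of local background and raw otherwise. The deposited score per spot (SF) is not defined in the sources used here. The authors' deposited table holds their log2 ratios, which followed log2(lung/reference) computed here (r 0.982 to 0.998, slopes 0.961 to 0.997), except that the column of air pool 4 with lung in Cy3 was on the log10 scale in the deposited table (slope 0.297). Its column medians for pools 1 to 4 with lung in Cy3 were -0.0529, 0.0125, -0.136 and -0.129 (LPS) and -0.0186, -0.0958, 0.0514 and 0.00332 (air). With lung in Cy5 they were -0.0448, -0.0355, 0.0471 and 0.0342 (LPS) and 0.0590, 0.0860, 0.0889 and 0.0782 (air). The authors' centring method and normalisation are not given in the sources used here. That table served as an alternative only.

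The air pool 4 file with lung in Cy3 pairs, per the file headers, its own Cy3 image with a Cy5 image of air pool 3, whose Cy5 values it matched at r = 0.9985 (next 0.958), so 15 of 16 arrays were used and the dye effect does not cancel in that pool. The matched array carried lung in Cy5, so the ratio in that file is of lung over lung. In limma 3.58.1 under R 4.3.3, the log2 ratios were loess-normalised within arrays, turned to lung over reference and averaged over the arrays of a pool. Features with at least 3 pools per group were tested two-sided with lmFit and eBayes, and p-values were adjusted by Benjamini-Hochberg across all features (threshold 0.05). The procedure was tested on simulated data. The probe with the highest mean intensity stood for a gene. Gene names came from the platform annotation (18218 probes with 1 symbol, 16 with several, 4341 with none) and rest on how it was laid over the spot grid: probe pairs of 1 gene correlated at r = 0.523 over 1030 genes under the layout used and at most at 0.0701 under 7 others.

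All 10 members were named whatever their values, with up to 3 genes per role of the wider list by smallest p, up to 2 per marker list and the 5 profiles nearest Slc7a2. The members and lists were chosen with earlier results of these data known. Alternatives changed the arrays, normalisation, background, probe rule, program version, pool number, dye and pools.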

Additional observations from a re-analysis of the deposited data

Results flagged for a closer look

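Slc7a2 in air pool 3 stood apart from the other air pools, at -0.264 against 0.0255 to 0.0825, a gap of 0.835 of the group's range. Without that pool the Slc7a2 difference was 2.56 in place of 2.64. Odc1 in air pool 4, which rests on 1 array, stood at -0.795 while the other air pools lay between -1.15 and -1.09, a gap of 0.837 of the range. Both gaps exceeded Dixon's 95% critical value for 4 values. The check covered 20 groups, of which it marked 2, and chance marks about 1 in 20 groups.

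The Arg1 difference between LPS and air was 1.32 higher among the pools read with the second program version than among those read with the first, by a test of the gap itself (adjusted p = 0.0333, limma interaction). In version 2.2.3 it was -0.59 and in version 2.2.4 it was 0.73. Over the 5 other settings tried for this gap it was 1.30 to 1.44, with an adjusted p of 0.0205 to 0.213, and passed in 4. The setting in which it did not pass was the one with all 16 arrays. Each version holds 2 pools of each group, so each within-version value rests on 4 pools. In the image names the air pools had week number 8 under version 2.2.3 and 4 under version 2.2.4. Version and week number cannot be told apart in this gap.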

How the results depend on the processing

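The Slc7a2 difference stayed positive in every setting tried, at 2.43 to 2.91, against 2.64. The setting with all 16 arrays adds a ratio of lung over lung to air pool 4. Its results therefore do not measure lung over reference alone. Of the 9 other genes 2 passed; 1 passed with all 16 arrays, with scaling between arrays, with the authors' table and with lung in Cy5 alone, 0 with median centring and with lung in Cy3 alone, and 0 to 1 with each pool left out (0 without air pool 4). Of all features 1375 passed, against 501 with all 16 arrays, 735 with median centring, 2265 with the version block, 4707 in the first version alone, 416 with lung in Cy3 alone and 711 to 1262 with each pool left out (711, 752 and 829 without LPS pools 1, 2 and 3, and 766 without air pool 4). Of the wider list 17 passed, against 8 with all 16 arrays, 9 with median centring, 30 in the first version alone (25 higher, 5 lower), 10 in the second (9 and 1), 7 with lung in Cy3 alone and 9 to 18 with each pool left out (10 and 9 without LPS pools 1 and 2, and 11 without air pool 4). The interaction with the version passed for 1792 features, against 0 with all 16 arrays (2836 at an unadjusted p under 0.05), 3487 with median centring and 3158 with scaling.

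Arg2 lost its call with median centring (adjusted p = 0.0559), lung in Cy3 alone (0.0839) and lung in Cy5 alone (0.0585). Ass1 lost it in 8 of 17 settings besides the 8 fits without 1 pool. Genes with small differences changed sign: Nos2 in the first version alone (-0.50) and with lung in Cy3 alone (-0.011); Nos3 in the second version alone (0.15); Ddah1 with scaling (-0.041), the authors' table (-0.0072), the first version alone (-0.49) and lung in Cy5 alone (-0.031). Asl did so with all 16 arrays (-0.059), scaling (-0.00150) and lung in Cy5 alone (-0.00855), and Arg1 with the authors' table (-0.031) and in the first version alone (-0.59). With each pool left out the range was -0.060 to 0.34 for Nos2, -0.44 to 0.072 for Nos3, -0.099 to 0.20 for Ddah1 and -0.085 to 0.26 for Arg1. Their causes were not tested. No scaling moved the median of all features by over 0.1.

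Between LPS and air pools of the same number, deviations from the group means correlated at -0.263 to -0.0374. Pools of the same number were never read with the same program version, so these values cannot decide whether pool numbers pair the groups. With the pool number as a replicate block 857 features passed, 0 of the 9 genes (adjusted p = 0.0576 for Arg2 and 0.115 for Ass1) and 12 of the wider list. The median air signal was under 5 times the local background for Arg2, Arg1, Nos2 and Asl, and fits within 1 version rest on 4 pools.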
